A study of Sus scrofa with 6 samples.

Results

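Molecular chaperone genes were compared between ovarian follicles of the pig that are titled as 3 stages. The families covered were the heat shock proteins HSP70, HSP110, HSP90, HSP60, HSP10 and the small HSPs, the DNAJ co-chaperones, the ring-shaped CCT complex, the PDIA disulfide isomerases, the lectin chaperones CALR and CANX, and the FKBP prolyl isomerases. Members were all probe sets that the platform annotation assigns to 1 gene whose symbol belongs to these families, and where a gene had several, the brightest on average over all arrays stood for it. This gave 70 genes, measured by 117 probe sets, of 6765 genes and 23999 probe sets in all. From textbook localisation, 44 of the proteins work in the cytosol or nucleus, 19 in the endoplasmic reticulum (ER) and 7 in the mitochondrion. Each of 6 Affymetrix arrays for the pig carried 1 sample, and the titles name 3 stages, primordial, middle and last, with 2 arrays apiece. The follicles came from young female pigs before puberty and were staged by their morphology and diameter, and no strain or treatment is named. The descriptions attached to the samples call all 6 of them primordial, so the stages used here are those of the titles alone. The titles call the arrays of a stage biological replicates, but no source ties them to different animals; the p-values then cover the spread among these few arrays, which may be technical, and their number limits the precision.

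Chaperones bind unfolded protein and keep it from clumping until it folds. In the cytosol, HSP70 and HSP90 proteins work in ATP-driven cycles that DNAJ proteins start, and heat shock factors raise the inducible members when unfolded protein builds up there. In the ER, the HSP70 protein HSPA5, the HSP90 protein HSP90B1, the lectins and the PDIA enzymes fold secreted and membrane proteins, and a separate signalling pathway, the unfolded protein response, raises them when that compartment is overloaded. A growing follicle makes large amounts of secreted and membrane protein, among them the zona pellucida proteins of the oocyte and the hormones and matrix of the cells around it.

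The arrays had been brought to 1 scale: the mean signal without the lowest and highest 2% was 500.1 on each, and the median signal ran from 119.3 to 169.9. Of the 23999 probe sets, 14399 passed a filter on mean signal, and 67 of the 70 chaperones were among them; the dim HSPA12A, HSPB3 and HSPB7 were not. FKBP6 and HSPB8 passed only through the stage where each was brightest, since the mean over their other stages was under the threshold of 91.3. The stages differed in cell-type markers. Marker counts, here and in the processing section, are to be read beside the shares of all probe sets called (limma, adjusted p under 0.05). In middle minus primordial these shares were 29.7% higher and 17.7% lower. They were 7.29% and 9.94% in last minus middle, and 19.8% and 13.4% in last minus primordial. Summed signal of 10 oocyte markers was 453.7 and 475.1 on the arrays titled primordial, 17934 and 19490 (middle) and 806.5 and 812.6 (last). All 8 oocyte markers tested were higher in middle than in primordial follicles and lower in last than in middle follicles. Oocyte signal was thus low on the arrays titled primordial, and whether these hold primordial follicles was not tested. Rises and falls below are differences between titled groups. Summed signal of 8 immune markers was 16737 to 18349 in primordial, 783.6 to 1123 in middle and 1343 to 3299 in last follicles, and all 6 tested were lower in each later stage than in primordial follicles. Smooth muscle markers summed to 3503 to 4300 in primordial, 6660 to 7387 in middle and 27158 to 27604 in last follicles, and all 5 were higher in last follicles than in either earlier stage. Granulosa markers summed to 31769 to 42991 in primordial, 12126 to 17667 in middle and 44935 to 51110 in last follicles. Of the 7 granulosa markers tested, 4 were lower and 1 higher in middle than in primordial follicles, and 4 were higher and 2 lower in last than in middle follicles. Theca markers summed to 5820.0 to 6318 in primordial, 3094 to 4192 in middle and 18023 to 21401 in last follicles, and all 5 were higher in last than in middle follicles. Endothelial markers summed to 719.0 to 841.7 in middle and 2155 to 2833 in last follicles, with 3 of 4 higher, and epithelial markers to 1347 to 1381 and 197.2 to 236.5, with all 3 lower. No marker was at 0 on any array. The ratio of the 3′ to the 5′ control probe set of actin, a measure of RNA quality, was 3.21 to 3.56 (log2) in primordial, 4.21 to 4.98 in middle and 3.57 to 3.90 in last follicles. The same ratio of GAPDH was 2.69 to 3.43 in primordial, 2.79 to 3.29 in middle and 1.86 to 1.90 in last follicles, and that of EF1A 0.67 to 1.02, 0.87 to 1.34 and 0.70 to 0.83. The controls thus differed in pattern, with actin highest in the middle stage, GAPDH lowest in the last stage and EF1A in primordial follicles overlapping both later stages. The part of cell makeup and RNA quality in the results below was not tested.

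Many chaperones of the cytosol and of the ER were lowest in middle follicles. Between primordial and middle follicles 30 of the 67 tested chaperones fell and 10 rose (limma, adjusted p under 0.05). Called genes were thus 59.7% of the chaperones, beside 47.4% of all 14399 probe sets. By direction, 44.8% of the chaperones were lower, beside 17.7% of all probe sets, and 14.9% were higher, beside 29.7%. Many probe sets have no gene symbol, and genes were more evenly split. Of 5432 genes tested, each by its brightest probe set, 1224 were lower and 1245 higher. Fewer cells of a type and less RNA per cell cannot be told apart in such bulk samples. Between middle and last follicles 18 chaperones rose and 2 fell. That is 26.9% higher, beside 7.29% of all probe sets, and 2.99% lower, beside 9.94%. Called in either direction were 29.9%, beside 17.2%. Of the 5432 genes, 478 were higher and 393 lower. Between primordial and last follicles 17 chaperones were lower and 9 higher. That is 25.4% beside 13.4% of all probe sets for lower, and 13.4% beside 19.8% for higher. In either direction it is 38.8% beside 33.2%. Of the 5432 genes, 857 were lower and 932 higher. Without FKBP6 and HSPB8 the counts over 65 chaperones were 9 higher and 29 lower, 17 higher and 1 lower, and 8 higher and 17 lower, in the same order. Over all 3 stages 42 chaperones, or 62.7%, passed limma's F-test, beside 50.3% of all probe sets. The share that passed was 78.9% of 19 ER genes (15), 63.4% of 41 cytosolic genes (26) and 14.3% of 7 mitochondrial genes (1).

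Of the 19 ER chaperones, 11 fell and 1 rose between primordial and middle follicles, with a median log2 difference of −0.79. Of the 41 cytosolic chaperones tested, 18 fell and 7 rose, with a median of −0.42. Of the 7 mitochondrial chaperones, 1 fell and 2 rose, with a median of 0.02. The median over all 5432 genes tested was 0.06. Lower calls were 57.9% of ER, 43.9% of cytosolic and 14.3% of mitochondrial chaperones, beside 17.7% of all probe sets. Between middle and last follicles 9 ER chaperones rose and 0 fell, with a median of 0.52, and the other 10 did not pass. In that comparison 9 cytosolic chaperones rose and 2 fell, with a median of 0.10. No mitochondrial chaperone passed it. Called in either direction between middle and last follicles were 47.4% of ER and 26.8% of cytosolic chaperones, beside 17.2% of all probe sets. Between primordial and last follicles 3 ER chaperones were higher and 4 lower, with a median of −0.22. That is 36.8% called, near the 33.2% of all probe sets. By direction, 15.8% were higher and 21.1% lower, beside 19.8% and 13.4% of all probe sets. The lowest stage mean lay in middle follicles for 13 of 19 ER genes (68.4%), 19 of 41 cytosolic genes (46.3%) and 1 of 7 mitochondrial genes (14.3%), beside 35.0% of all genes tested. These are descriptions of the lists, and no test compared the compartments.

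**Figure D1:**
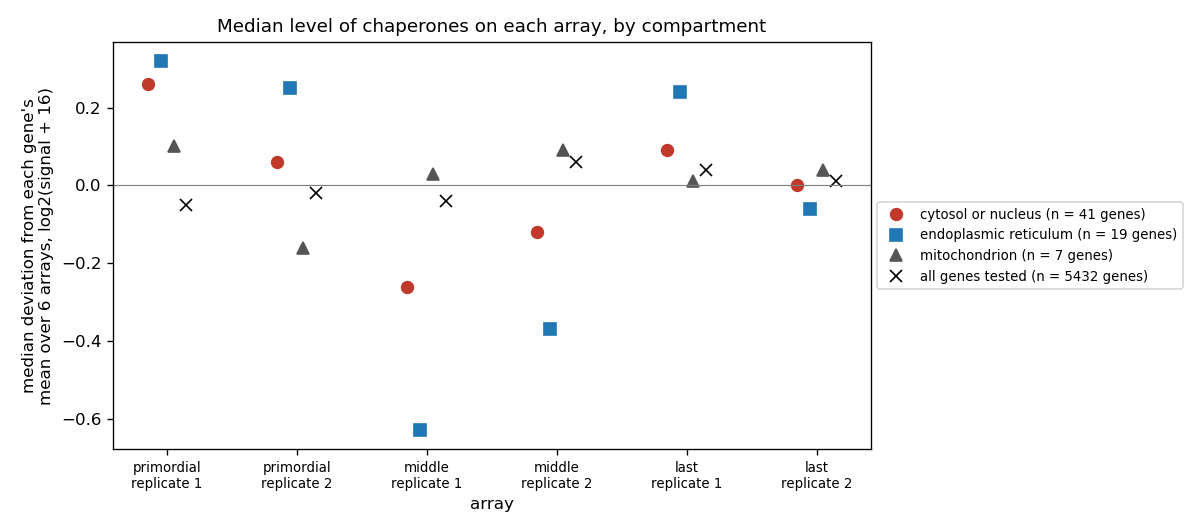
Median level of each compartment on each array: the vertical axis gives the median deviation of genes from their own mean over the 6 arrays, on the log2(signal + 16) scale, and the horizontal axis gives the array. ER chaperones (squares) sat at 0.32 and 0.25 on the primordial arrays, at −0.63 and −0.37 on those titled middle, and at 0.24 and −0.06 in the last stage, while all genes tested (crosses) stayed between −0.05 and 0.06.

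Both compartments were lower on the 2 middle arrays than on the other 4, as the plot of compartment medians by array shows. Cytosolic genes sat at 0.26 and 0.06 on the primordial arrays, −0.26 and −0.12 on those titled middle, and 0.09 and 0.00 in the last stage. The last-stage arrays differed more from each other for ER genes than for cytosolic genes. Scale matters to these counts, because the middle arrays had the highest medians over all probe sets. Centring each array on its median moved the median of middle minus primordial, taken over every probe set tested, from 0.22 to −0.20. The chaperone calls then went from 10 higher and 30 lower to 3 higher and 42 lower, while those of all probe sets went from 4275 higher and 2546 lower to 2436 higher and 4228 lower. Lower calls were then 62.7% of the chaperones, beside 29.4% of all probe sets. In last against primordial follicles the chaperone calls went from 9 higher and 17 lower to 4 higher and 24 lower, and those of all probe sets from 2857 higher and 1929 lower to 1759 higher and 2751 lower. Single libraries matter too. Without primordial replicate 1, chaperones called between primordial and middle follicles came to 6 higher and 21 lower, or 40.3% beside 34.9% of all probe sets. Without primordial replicate 2 they came to 3 higher and 26 lower (43.3% beside 33.4%), without middle replicate 1 to 5 higher and 22 lower (40.3% beside 30.3%) and without middle replicate 2 to 5 higher and 25 lower (44.8% beside 37.3%). Between middle and last follicles, 9 ER genes were called, but 1 was called without middle replicate 1, 2 without last replicate 1, and 6 without either primordial array or middle replicate 2. The 20 chaperones called in that comparison became 7 without middle replicate 1 (10.4% beside 5.05% of all probe sets), 13 without middle replicate 2 (19.4% beside 10%) and 11 without last replicate 1 (16.4% beside 13.1%). The 26 called between primordial and last follicles became 11 without primordial replicate 1, or 16.4%, under the 20.1% of all probe sets called then. They became 17, or 25.4%, without primordial replicate 2 (beside 19.0%) or last replicate 1 (beside 23.1%).

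**Figure D2:**
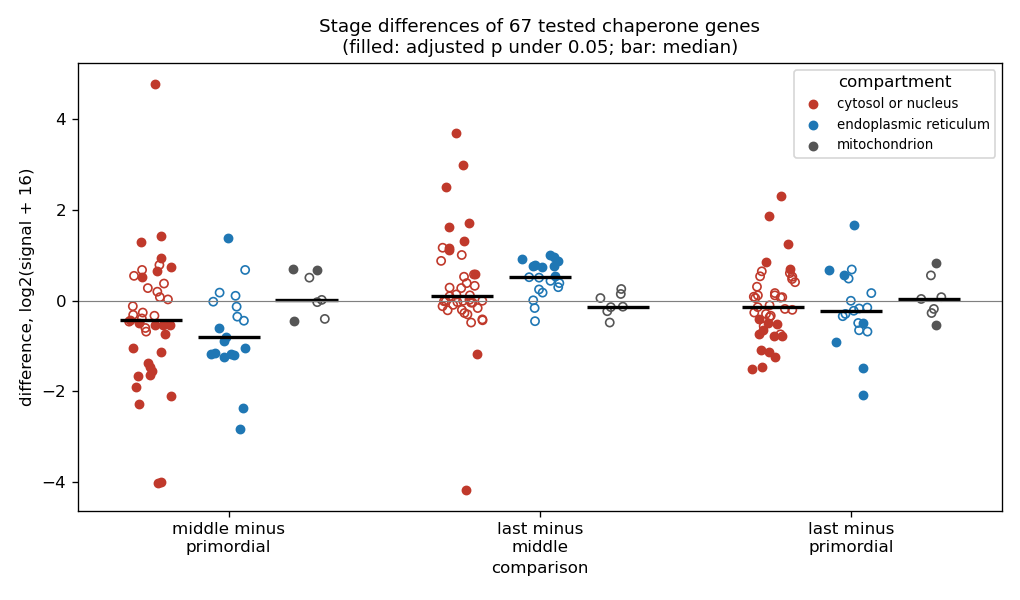
Differences between stages for the 67 tested chaperones: the vertical axis gives the difference in log2(signal + 16), filled points passed limma's adjusted p of 0.05, open points did not, and bars are medians. In middle minus primordial the ER points centre on −0.79 and the cytosolic points on −0.42, but the cytosolic points spread from −4.02 to 4.79 and the ER points from −2.83 to 1.38.

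The 2 largest falls to the middle stage were those of stress-inducible cytosolic chaperones. HSPA6, an HSP70 known in human cells as strictly inducible, had signals of 5282 and 1732 in primordial, 149.0 and 198.6 in middle and 1033 and 1077 in last follicles. The stages did not overlap. Middle was below primordial by a log2 difference of −4.02 ± 0.42 (SE; adjusted p = 0.000107), and last was above middle by 2.51 ± 0.42 (adjusted p = 0.00418). DNAJB1, the inducible DNAJ partner of HSP70, read 22883 and 13287 in primordial, 1138 and 1022 in middle and 13406 and 15198 in last follicles. Its middle arrays lay about an order of magnitude under all others, whereas last and primordial arrays overlapped. The fall to the middle stage was −4.00 ± 0.23 (adjusted p = 6.32e-06) and the rise from it 3.71 ± 0.23 (adjusted p = 2.51e-05), the largest rise among the 67 chaperones. Last minus primordial was −0.29 ± 0.23 (adjusted p = 0.372).

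HSP70.2 is the name the annotation gives to the pig's main inducible cytosolic HSP70. It read 25639 and 15292 in primordial, 6836 and 5936 in middle and 19598 and 22671 in last follicles. HSPH1, an HSP110 protein that exchanges nucleotide on HSP70, read 20566 and 13774 in primordial, 3079 and 3921 in middle and 9654 and 12063 in last follicles. HSPB1, the widely expressed small HSP, read 14679 and 11602 in primordial, 2890.0 and 5775 in middle and 9035 and 11393 in last follicles. For each of these 3 genes both middle arrays were below all other arrays. HSP70.2 fell by 1.63 ± 0.22 to the middle stage (adjusted p = 0.000379) and rose by 1.72 ± 0.22 after it (adjusted p = 0.00101). HSPH1 changed by −2.27 ± 0.22 (adjusted p = 6.15e-05) and 1.63 ± 0.22 (adjusted p = 0.00119), and HSPB1 by −1.67 ± 0.29 (adjusted p = 0.00141) and 1.31 ± 0.29 (adjusted p = 0.0141). HSP70 genes are near-identical in sequence over long stretches, so the signals of HSP70.2, HSPA6, HSPA8 and HSPA2 could each hold some of another member.

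For these 5 genes the fall to the middle stage passed in every alternative tried, as did the rise after it for DNAJB1, HSP70.2 and HSPH1. The rise of HSPA6 was lost without middle replicate 1 (2.32, adjusted p = 0.0715), and that of HSPB1 without middle replicate 1 (0.81, adjusted p = 0.0942) or last replicate 2 (1.14, adjusted p = 0.0592). HSPA6 and HSPH1 were also lower in last than in primordial follicles, at −1.51 ± 0.42 (adjusted p = 0.0239) and −0.64 ± 0.22 (adjusted p = 0.0464). The HSPA6 call was lost without primordial replicate 1 (−0.71, adjusted p = 0.119), and without middle replicate 2 or either last-stage array (−1.48 to −1.54, adjusted p = 0.0501 to 0.0768). The HSPH1 call passed in 7 of 16 alternatives, and was lost without primordial replicate 1 (−0.35, adjusted p = 0.314), last replicate 1 (−0.48, adjusted p = 0.198) or either middle array (−0.64, adjusted p = 0.0663 and 0.0669).

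**Figure D3:**
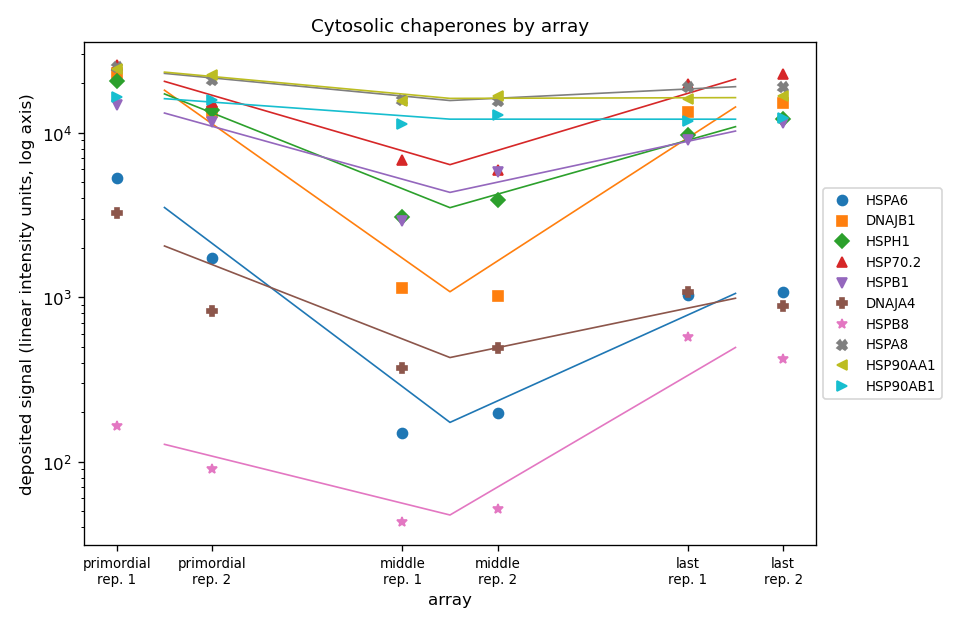
Deposited signal of 10 cytosolic chaperones on each array, on a log axis of linear intensity units; points are single arrays and lines join stage means. HSPA6 and DNAJB1 drop to 149.0 to 198.6 and 1022 to 1138 on the middle arrays, while HSPA8, HSP90AA1 and HSP90AB1 stay at 11294 or above on every array.

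The primordial arrays themselves differed in several cytosolic genes. Replicate 1 was more than 1.5-fold above replicate 2 for 7 of 41 cytosolic chaperones (17.1%) and 0 of 19 ER chaperones, and replicate 2 was so far above replicate 1 for none of them. Over all genes tested, 4.82% were that much higher in replicate 1 and 6.20% in replicate 2. The 7 genes were DNAJA4, HSPA6, DNAJB4, HSPB8, DNAJB1, HSP70.2 and DNAJC6. Stress-inducible genes were not all among them: replicate 1 was 1.49-fold above replicate 2 for HSPH1 and 1.26-fold for HSPB1. DNAJA4, a DNAJ partner of HSP70, had the widest gap, with 3271 against 825.1 on the primordial arrays, 371.1 and 489.6 in middle follicles, and 1084 and 888.7 in last follicles. Both primordial arrays lay above both middle arrays, and DNAJA4 fell by 1.91 ± 0.50 (adjusted p = 0.0124), a call lost without middle replicate 1 (−1.72, adjusted p = 0.102) or middle replicate 2 (−2.10, adjusted p = 0.0516). DNAJB4, a close relative of DNAJB1, read 3534 and 1646 in primordial, 1776 and 1267 in middle and 3538 and 3193 in last follicles, with primordial and middle arrays overlapping. It rose between middle and last follicles by 1.16 ± 0.32 (adjusted p = 0.0381), which was lost without any of the 4 arrays compared (0.91 to 1.40, adjusted p = 0.0761 to 0.197). Between last and primordial follicles 17 cytosolic genes were called (41.5%, beside 33.2% of all probe sets), of which 12 were lower (29.3%, beside 13.4%). Of those 12, only HSPA6 had such a gap between primordial replicates. Fewer cytosolic genes were called without primordial replicate 1 or last replicate 1, and calls over all probe sets fell then too. The median of cytosolic genes in that comparison went from −0.14 to 0.10 without primordial replicate 1 and to −0.29 without primordial replicate 2.

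**Figure D4:**
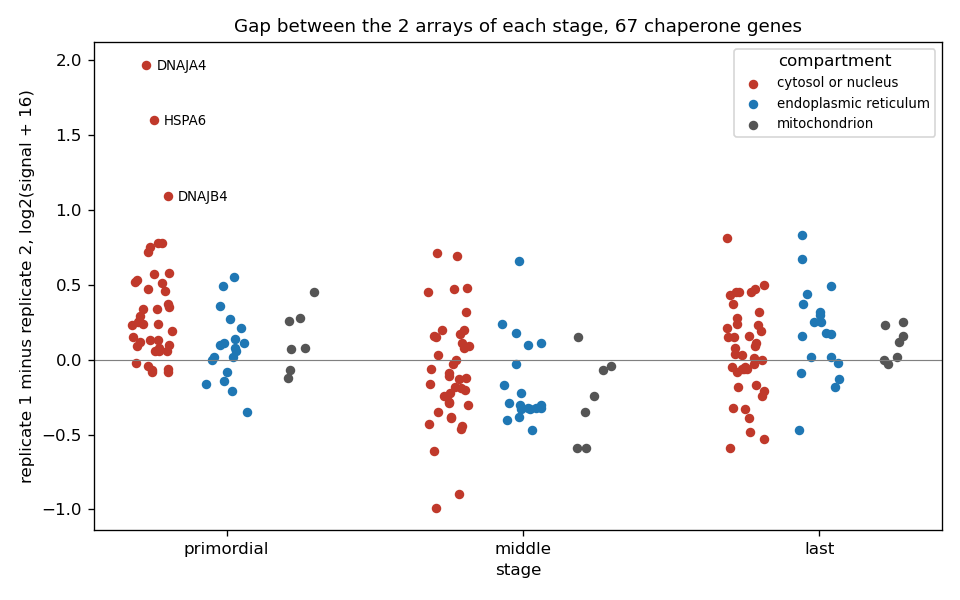
Gap between the 2 arrays of each stage for the 67 tested chaperones: replicate 1 minus replicate 2 on the log2(signal + 16) scale, by stage and compartment. The highest points are cytosolic genes in primordial follicles, DNAJA4 at 1.97, HSPA6 at 1.60 and DNAJB4 at 1.09, while the ER genes of that stage lie between −0.35 and 0.55.

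The constitutive cytosolic HSP70 and HSP90 genes had smaller differences. HSPA8, the HSP70 present in most cells at all times, read 24902 and 20859 in primordial, 15806 and 15500.0 in middle and 18971 and 19022 in last follicles. Each stage held its own range. The difference between primordial and middle follicles was −0.54 ± 0.13 (adjusted p = 0.00658), and it was lost without primordial replicate 1 (−0.41, adjusted p = 0.0619). HSP90AA1, the more inducible cytosolic HSP90, read 24366 and 22219 in primordial, 15633 and 16625 in middle and 15963 and 16638 in last follicles. Middle and last arrays overlapped, and both stages lay below primordial. HSP90AA1 fell to the middle stage by 0.53 ± 0.12 (adjusted p = 0.00546) and last minus primordial was −0.51 ± 0.12 (adjusted p = 0.0101; −0.45 and adjusted p = 0.0734 without primordial replicate 1). HSP90AB1, its constitutive partner, read 16403 and 15725 in primordial, 11294 and 12836 in middle and 11792 and 12325 in last follicles. Its differences from primordial were −0.42 ± 0.13 in middle (adjusted p = 0.0242) and −0.41 ± 0.13 in last follicles (adjusted p = 0.0338). With quantile normalization the first was −0.05 (adjusted p = 0.702). The first was lost without either primordial array or middle replicate 1 (−0.32 to −0.45, adjusted p = 0.0763 to 0.147), and the second without any primordial or last-stage array (−0.38 to −0.45, adjusted p = 0.0536 to 0.150).

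HSPA4, an HSP110 protein, read 4582 and 4222 in primordial, 2023 and 2221 in middle and 2105 and 1623 in last follicles. Its difference from primordial was −1.05 ± 0.19 in middle (adjusted p = 0.00168) and −1.24 ± 0.19 in last follicles (adjusted p = 0.00139), with middle and last arrays overlapping. HSPA2, an HSP70 known from male germ cells, read 1336 and 1395 in primordial, 1057 and 756.2 in middle and 1721 and 2263 in last follicles. It rose from middle to last by 1.13 ± 0.23 (adjusted p = 0.00969; 0.89 and adjusted p = 0.0670 without middle replicate 2). HSPA14, a ribosome-associated HSP70, overlapped between all stages, at 778.0 to 1169, and passed none of the comparisons.

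Other probe sets of these genes did not always move with the brightest. Of 22 chaperone genes with several tested probe sets, HSPA8, HSP90AA1, HSPA4 and DNAJB14 had probe sets called in opposite directions between primordial and middle follicles, and HSP90AA1 also between primordial and last follicles. Beside its bright probe set, HSPA8 has 3 dim ones that were higher in middle than in primordial follicles, by 2.66 ± 0.29, 2.04 ± 0.26 and 1.62 ± 0.30 (adjusted p = 0.000119, 0.000285 and 0.00209). The brightest of those 3 read 225.7 and 163.5 in primordial, 1601 and 1053 in middle and 491.4 and 345.8 in last follicles. Averaged over probe sets, HSPA8 was 1.44 higher in middle than in primordial follicles (log2, adjusted p = 0.000416), against −0.54 for the bright probe set, and the sign of HSP90AA1 turned to 0.17 (middle minus primordial) and 0.14 (last minus primordial). HSPA4 averaged −0.11 (adjusted p = 0.656) in middle minus primordial and −0.44 (adjusted p = 0.104) in last minus primordial. Directions given for HSPA8, HSPA4 and DNAJB14 are those of the brightest tested probe set alone. For HSP90AA1 the next brightest was also lower in middle than in primordial follicles (−0.49 ± 0.18, adjusted p = 0.0478), and its last minus primordial difference of −0.25 did not pass (adjusted p = 0.311).

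The cytosolic and nuclear DNAJ proteins, which hand clients to HSP70, were 14 genes, of which 7 fell and 2 rose between primordial and middle follicles. That is 50.0% lower and 14.3% higher, beside 17.7% and 29.7% of all probe sets. DNAJA1, a general partner of HSPA8, read 20775 and 17574 in primordial, 6679 and 8092 in middle and 10238 and 12089.6 in last follicles. No stages overlapped. The steps were −1.38 ± 0.16 (adjusted p = 0.000168) and 0.60 ± 0.16 (adjusted p = 0.0314), and last minus primordial was −0.78 ± 0.16 (adjusted p = 0.00579). DNAJA2, another general partner, read 2278 and 2337 in primordial, 829.8 and 844.6 in middle and 1058 and 1049 in last follicles. The replicates agreed closely, and DNAJA2 differed from primordial by −1.45 ± 0.18 in middle (adjusted p = 0.000236) and by −1.12 ± 0.18 in last follicles (adjusted p = 0.00186), in every alternative. DNAJB6, which holds back aggregation, read 6731 and 5203 in primordial, 2243 and 1799 in middle and 1819 and 2548 in last follicles. Both later stages lay below primordial and overlapped each other, and the differences from primordial were −1.55 ± 0.22 (adjusted p = 0.000548) and −1.45 ± 0.22 (adjusted p = 0.00157). Averaged over probe sets, DNAJA1 and DNAJB6 missed the threshold in middle minus primordial (−0.42, adjusted p = 0.0777, and −0.68, adjusted p = 0.0551) and in last minus primordial (−0.20, adjusted p = 0.402, and −0.62, adjusted p = 0.0952). The rise of DNAJA1 from middle to last passed in 9 of 16 alternatives, and was lost without either middle array or last replicate 2 (0.46 to 0.73, adjusted p = 0.0542 to 0.226). Its difference between last and primordial was lost without primordial replicate 1 (−0.66, adjusted p = 0.0505).

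DNAJC5, the cysteine string protein of secretory vesicles, read 333.8 and 257.8 in primordial, 42.9 and 73.8 in middle and 142.2 and 119.3 in last follicles. The stages did not overlap, and DNAJC5 fell by 2.09 ± 0.33 to the middle stage (adjusted p = 0.000847). Last minus primordial was −1.08 ± 0.33 (adjusted p = 0.0310), which was lost without any primordial or last-stage array (−0.90 to −1.26, adjusted p = 0.0653 to 0.180). The 2 cytosolic DNAJ genes that rose between primordial and middle follicles were DNAJC6, known as auxilin and a partner of HSPA8 in stripping clathrin from vesicles, and DNAJC24, a factor in making diphthamide. DNAJC6 read 143.0 and 80.3 in primordial, 306.7 and 272.2 in middle and 95.8 and 145.4 in last follicles, so only the middle arrays stood apart. It rose by 1.30 ± 0.34 (adjusted p = 0.0111) and fell by 1.18 ± 0.34 after the middle stage (adjusted p = 0.0401). The rise was lost without primordial replicate 2 (0.94, adjusted p = 0.0809) or middle replicate 1 (1.22, adjusted p = 0.0793), and the fall without either middle array or last replicate 1 (−0.92 to −1.26, adjusted p = 0.119 to 0.224). DNAJC24 read 382.5 and 388.7 in primordial, 815.2 and 709.1 in middle and 833.2 and 606.2 in last follicles. It was higher than in primordial follicles by 0.95 ± 0.23 in middle (adjusted p = 0.00743; 0.85 and 0.0588 without middle replicate 1) and by 0.86 ± 0.23 in last follicles (adjusted p = 0.0182). The last-stage difference was lost without either primordial array or last replicate 1 (0.63 to 0.87, adjusted p = 0.0780 to 0.102). With each array centred on its median both differences missed the threshold. DNAJC2, a ribosome-bound DNAJ, fell to the middle stage by 0.54 ± 0.20 (adjusted p = 0.0475), which was lost without any primordial or middle array (−0.50 to −0.59, adjusted p = 0.119 to 0.186). Averaged over probe sets, DNAJC2 was −0.05 in middle minus primordial (adjusted p = 0.874). Its dimmer probe set differed in sign, at 0.45 ± 0.26 (adjusted p = 0.19). DNAJB2, DNAJC8, DNAJC9 and DNAJC17 passed no comparison.

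The CCT ring, which folds actin and tubulin, was represented by 6 of its subunits. Called were 33.3% of them in middle minus primordial, beside 47.4% of all probe sets, and 0% in last minus middle, beside 17.2%. In last minus primordial it was 50.0%, beside 33.2%. TCP1, its alpha subunit, read 7396 and 6029.9 in primordial, 3791 and 4248 in middle and 3862 and 3956 in last follicles. Middle and last arrays overlapped, below primordial. TCP1 differed from primordial by −0.73 ± 0.16 in middle (adjusted p = 0.00557) and by −0.77 ± 0.16 in last follicles (adjusted p = 0.00707), and both calls were lost without primordial replicate 1 (−0.59, adjusted p = 0.0591, and −0.62, adjusted p = 0.0675). CCT8 read 7421 and 6781 in primordial, 5489.8 and 5977 in middle and 4479 and 4002 in last follicles, in 3 ranges that did not overlap. Only the difference between last and primordial passed, at −0.74 ± 0.15 (adjusted p = 0.00573), and it did so in every alternative. CCT4 differed from primordial follicles by −0.50 ± 0.15 in both middle (adjusted p = 0.0237) and last follicles (adjusted p = 0.0323). With quantile normalization the first difference was −0.15 (adjusted p = 0.4). The first call was lost without either primordial array or middle replicate 1 (−0.38 to −0.57, adjusted p = 0.0582 to 0.142), and the second without any primordial or last-stage array (−0.42 to −0.57, adjusted p = 0.0539 to 0.176). CCT2, CCT6A and CCT7 passed none of the comparisons, and no subunit passed between middle and last follicles.

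The small HSPs, ATP-independent holding chaperones, did not follow a common pattern. HSPB8, a partner of the HSP70 co-chaperone BAG3, read 165.7 and 90.0 in primordial, 43.1 and 52.1 in middle and 571.8 and 419.1 in last follicles. Its stages did not overlap. The last-stage arrays carried it past the filter on mean signal, since its mean over the other stages was 87.7, so its differences of 2.99 (last minus middle) and 1.87 (last minus primordial) are a description. Its fall of 1.13 ± 0.34 from primordial to middle (adjusted p = 0.0222) was lost without primordial replicate 1 (−0.74, adjusted p = 0.163) or either middle array (−1.03 and −1.23, adjusted p = 0.107 and 0.0582). HSPB6, a small HSP of smooth and striated muscle, read 55.8 and 33.8 in primordial, 187.8 and 110.1 in middle and 299.6 and 261.2 in last follicles. Each stage lay above the one before. HSPB6 was higher in last than in primordial follicles by 2.31 ± 0.35 (adjusted p = 0.00150) and in middle than in primordial follicles by 1.42 ± 0.35 (adjusted p = 0.00889), the latter lost without primordial replicate 2 (1.16, adjusted p = 0.0551) or middle replicate 1 (1.08, adjusted p = 0.0822). Smooth muscle markers were highest in last follicles as well. HSPB11, also known as an intraflagellar transport protein, read 474.5 and 440.3 in primordial, 758.4 and 710.5 in middle and 1242 and 990.0 in last follicles, again with no overlap. It was higher in last than in primordial follicles by 1.25 ± 0.21 (adjusted p = 0.00224), in every alternative. The difference between middle and primordial, 0.66 ± 0.21 (adjusted p = 0.0258), was lost without any primordial or middle array (0.61 to 0.72, adjusted p = 0.0664 to 0.123). HSPB2 passed no comparison.

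Among the cytosolic FKBPs, FKBP6 had the widest range. This FKBP is known from germ cells, where it takes part in meiosis and small RNA pathways with HSP90. It read 7.8 and 1.3 in primordial, 704.4 and 424.3 in middle and 20.8 and 10.1 in last follicles, so it was near the bottom of the scale on 4 arrays. FKBP6 passed the filter on mean signal through its middle arrays alone, with a mean of 10 over the other stages, so a difference was built into its selection. Its differences of 4.79 (middle minus primordial) and −4.18 (last minus middle) are given as a description. The 16 units added before taking logs hold down its fold change. The summed oocyte markers, given above, were likewise highest on the middle arrays. FKBP1B, which binds ryanodine receptors, read 442.5 and 467.7 in primordial, 696.1 and 854.3 in middle and 756.5 and 739.5 in last follicles. It was above primordial by 0.74 ± 0.21 in middle (adjusted p = 0.0155) and 0.70 ± 0.21 in last follicles (adjusted p = 0.0284). The first was lost without either primordial array or middle replicate 2 (0.60 to 0.78, adjusted p = 0.0595 to 0.0885), and the second without any primordial or last-stage array (0.66 to 0.74, adjusted p = 0.0661 to 0.126). FKBP3, a nuclear FKBP, was higher in middle than in primordial follicles by 0.53 ± 0.18 (adjusted p = 0.0392), which was lost without any primordial or middle array (0.48 to 0.59, adjusted p = 0.0915 to 0.164). With each array centred on its median, FKBP1B and FKBP3 missed the threshold. The HSP90 co-chaperones FKBP4 and FKBP5, which bind steroid receptor complexes, passed no comparison. FKBP4 ranged from 529.9 to 1049 and FKBP5 from 1189 to 1562 over the 6 arrays, with overlapping primordial and middle arrays. FKBP1A, the target of the drug FK506, was at 1935 to 2305 in primordial, 1403 and 1663 in middle and 2172 and 2250.1 in last follicles, with a middle minus primordial difference of −0.46 ± 0.19 (adjusted p = 0.0657), and FKBP15 also passed none.

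In the ER, HSPA5, the compartment's main HSP70 and also called BiP, read 30639 and 30543 in primordial, 12055 and 15071 in middle and 25054 and 27407 in last follicles. The middle arrays lay far below the other 4. HSPA5 fell by 1.18 ± 0.13 (adjusted p = 0.000154) and rose by 0.96 ± 0.13 (adjusted p = 0.00160), both in every alternative, and last minus primordial was −0.22 ± 0.13 (adjusted p = 0.230). HSP90B1, the HSP90 of the ER, read 18765 and 17379.5 in primordial, 7803 and 9808 in middle and 13954 and 11745 in last follicles. Its stages did not overlap. The fall was −1.04 ± 0.16 (adjusted p = 0.000652), in every alternative. A dimmer probe set passed no comparison, at −0.26 ± 0.26 (middle minus primordial, adjusted p = 0.441) and 0.36 ± 0.26 (last minus primordial, adjusted p = 0.316). Averaged over probe sets, HSP90B1 was −0.07 in last minus primordial (adjusted p = 0.814). Its rise after the middle stage, 0.55 ± 0.16 (adjusted p = 0.0396), passed in 6 of 16 alternatives, and was lost without either primordial array, middle replicate 1 or last replicate 1 (0.38 to 0.55, adjusted p = 0.0590 to 0.266). Last minus primordial, −0.50 ± 0.16 (adjusted p = 0.0355), passed in 9 of 16, and was lost without either primordial array or last replicate 2 (−0.37 to −0.55, adjusted p = 0.0938 to 0.162). HSPA13, a microsomal HSP70, read 6389 and 6291 in primordial, 4291 and 4005 in middle and 6264 and 5068 in last follicles. It fell to the middle stage by 0.61 ± 0.16 (adjusted p = 0.0117), a call lost without either primordial array or middle replicate 2 (−0.56 to −0.62, adjusted p = 0.0567 to 0.0627).

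The DNAJ proteins of the ER, which serve HSPA5, held the largest falls of that compartment. DNAJB9, a target of the unfolded protein response, read 4416 and 5116 in primordial, 679.2 and 628.8 in middle and 942.8 and 1316 in last follicles. All 3 stages were separate, with last follicles closer to middle than to primordial. Against primordial, DNAJB9 differed by −2.83 ± 0.21 in middle (adjusted p = 2.02e-05) and by −2.08 ± 0.21 in last follicles (adjusted p = 0.000223), in every alternative. DNAJB11, a co-factor of HSPA5, read 1832 and 1762 in primordial, 299.7 and 380.1 in middle and 672.7 and 598.3 in last follicles. It too was separate in each stage, and differed from primordial by −2.36 ± 0.21 in middle (adjusted p = 4.41e-05) and by −1.48 ± 0.21 in last follicles (adjusted p = 0.00103), in every alternative. DNAJC3, which restrains the stress kinase PERK and helps HSPA5, read 742.7 and 693.2 in primordial, 275.7 and 348.3 in middle and 370.1 and 375.2 in last follicles. Its fall of 1.17 ± 0.22 to the middle stage (adjusted p = 0.00213) passed in every alternative. That from primordial to last, 0.92 ± 0.22 (adjusted p = 0.0115), was lost without primordial replicate 1 (−0.87, adjusted p = 0.0677) or 2 (−0.97, adjusted p = 0.0509).

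DNAJB9 and DNAJB11 rose after the middle stage by less than they had fallen, and these rises passed in fewer alternatives than the falls. DNAJC3 differed by 0.25 between middle and last follicles (adjusted p = 0.457). DNAJB11 rose by 0.88 ± 0.21 (adjusted p = 0.0202; lost without middle replicate 1, 0.72 and 0.140, or last replicate 1, 0.80 and 0.0755). DNAJB9 rose by 0.76 ± 0.21 (adjusted p = 0.0387), in 7 of 16 alternatives, and was lost without either primordial array, either middle array or last replicate 2 (0.52 to 0.81, adjusted p = 0.0636 to 0.168). DNAJB14, a membrane DNAJ of the ER, read 940.6 and 1036 in primordial, 505.9 and 628.7 in middle and 994.6 and 980.1 in last follicles, with primordial and last arrays overlapping. It fell by 0.79 ± 0.20 (adjusted p = 0.0109) and rose by 0.79 ± 0.20 (adjusted p = 0.0281). Averaged over probe sets, DNAJB14 missed the threshold in both steps, at −0.05 (adjusted p = 0.851) and 0.35 (adjusted p = 0.248). Its dimmer probe set was higher in middle than in primordial follicles (0.69 ± 0.24, adjusted p = 0.0377). The fall was lost without primordial replicate 2 (−0.72, adjusted p = 0.0750) or middle replicate 1 (−0.64, adjusted p = 0.0727), and the rise without middle replicate 1 or either last-stage array (0.64 to 0.80, adjusted p = 0.0705 to 0.174). DNAJC14 differed from the other ER DNAJ genes in sign, with 394.9 and 265.2 in primordial and 458.7 to 609.7 in the later stages, but passed no comparison.

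**Figure D5:**
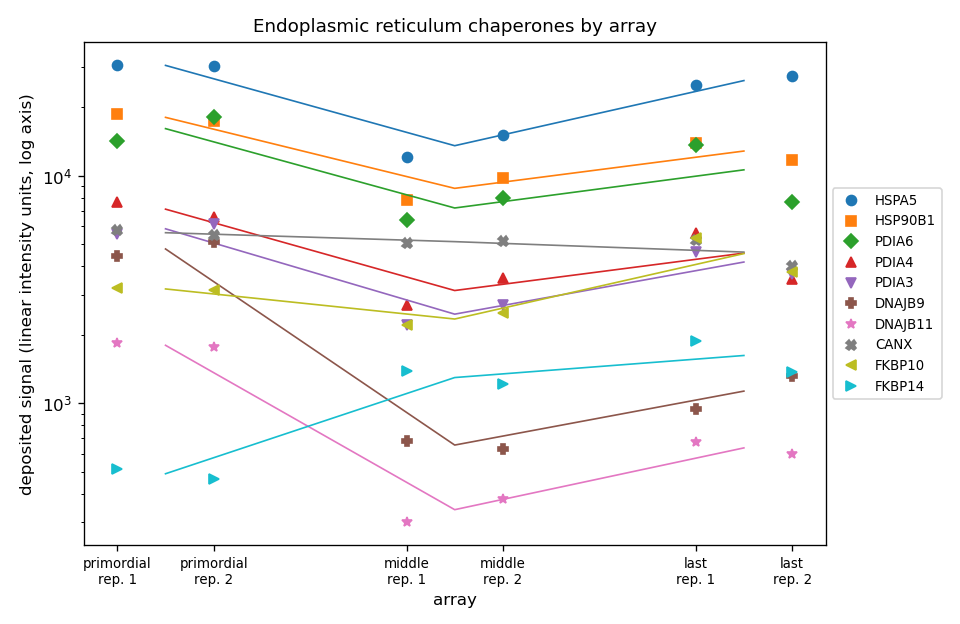
Deposited signal of 10 ER chaperones on each array, on a log axis of linear intensity units; points are single arrays and lines join stage means. HSPA5, HSP90B1, the PDIA genes, DNAJB9 and DNAJB11 dip on the middle arrays, CANX stays between 4027 and 5771 on all arrays, and FKBP14 climbs from 464.1 to 514.2 in primordial to 1213 to 1870.2 in the later stages.

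The 3 PDIA enzymes on the array, which make and shuffle disulfide bonds, all fell between primordial and middle follicles. PDIA3, which acts with the lectins on glycoproteins, read 5525 and 6166 in primordial, 2211 and 2715 in middle and 4643 and 3707 in last follicles. PDIA4 read 7659 and 6606 in primordial, 2712 and 3545 in middle and 5617 and 3522 in last follicles. PDIA6 read 14184 and 18062 in primordial, 6422 and 8013 in middle and 13592 and 7653 in last follicles. For PDIA4 and PDIA6 the second last-stage array lay within the middle range and the first lay near primordial, so last and middle overlapped, whereas primordial lay above middle for all 3. The falls were 1.25 ± 0.18 for PDIA3 (adjusted p = 0.000625), 1.19 ± 0.24 for PDIA4 (adjusted p = 0.00293) and 1.16 ± 0.25 for PDIA6 (adjusted p = 0.00496; −1.0 and 0.0618 without middle replicate 1). By the brightest probe sets, only PDIA3 passed between middle and last follicles, at 0.76 ± 0.18 (adjusted p = 0.0221). That call was lost without middle replicate 1 (0.61) or last replicate 1 (0.59). Dim probe sets of PDIA3 (2.25 ± 0.64, adjusted p = 0.0414) and PDIA4 (1.5 ± 0.44, adjusted p = 0.0433) were also higher in last than in middle follicles.

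By their brightest probe sets the lectin chaperones passed no comparison. The next brightest probe set of CANX, with a mean signal of 4050.0, was lower in middle than in primordial follicles (−0.44 ± 0.15, adjusted p = 0.0384). The dimmer CANX probe sets passed no comparison. CANX, the membrane-bound calnexin, read 5771 and 5467 in primordial, 5081 and 5185 in middle and 5207 and 4027 in last follicles, and its differences were −0.13 ± 0.17 (middle minus primordial, adjusted p = 0.549) and −0.16 ± 0.17 (last minus middle, adjusted p = 0.539). CALR, the soluble calreticulin, read 326.5 and 228.1 in primordial, 374.9 and 231.5 in middle and 214.3 and 210.4 in last follicles. Primordial and middle arrays overlapped, with a difference of 0.11 ± 0.29 (adjusted p = 0.790). A miss of the threshold does not show equal levels. The signs changed with the processing: CALR turned to −0.31 (middle minus primordial) once arrays were centred on their medians, and CANX to 0.23 when its probe sets were averaged.

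The FKBPs of the ER, several of which act on collagen, were 6 genes. Between primordial and middle follicles 1 rose and 1 fell, or 33.3% called, beside 47.4% of all probe sets. Between middle and last follicles 3 rose, or 50.0%, beside 7.29% of all probe sets higher. FKBP14 read 514.2 and 464.1 in primordial, 1379 and 1213 in middle and 1870.2 and 1370.3 in last follicles. Of the 19 ER chaperones it was the only one to rise between primordial and middle follicles (1.38 ± 0.22, adjusted p = 0.000903), and it was higher in last than in primordial follicles by 1.68 ± 0.22 (adjusted p = 0.000666), both in every alternative. FKBP10 read 3206 and 3152 in primordial, 2203 and 2485 in middle and 5312 and 3784 in last follicles. It rose from middle to last by 0.93 ± 0.20 (adjusted p = 0.0114), which was lost without middle replicate 1 (0.85, adjusted p = 0.107) or last replicate 1 (0.69, adjusted p = 0.0542). FKBP7 read 698.3 and 541.5 in primordial, 521.4 and 438.0 in middle and 1045 and 928.6 in last follicles. Last was above both earlier stages, by 1.02 ± 0.22 over middle (adjusted p = 0.0134; lost without either middle array or last replicate 1, 0.90 to 1.14, adjusted p = 0.0551 to 0.0793) and by 0.67 ± 0.22 over primordial (adjusted p = 0.0437; lost without any single array, 0.49 to 0.84, adjusted p = 0.0569 to 0.252). FKBP9 was higher in last than in primordial follicles by 0.57 ± 0.17 (adjusted p = 0.0287; lost without either primordial array or last replicate 1, 0.48 to 0.63, adjusted p = 0.0874 to 0.148). FKBP11, an FKBP of secretory cells, had its lowest signals on the middle arrays, with 1976 and 1635 in primordial, 868.8 and 1074 in middle and 1767 and 1484 in last follicles. It fell by 0.88 ± 0.21 (adjusted p = 0.00689), which was lost without primordial replicate 1 (−0.75, adjusted p = 0.0616) or middle replicate 1 (−0.73, adjusted p = 0.0568). It rose by 0.74 ± 0.21 (adjusted p = 0.0387), which was lost without any single array (0.59 to 0.89, adjusted p = 0.0513 to 0.225). FKBP2 passed no comparison. Summed signal of 5 fibroblast markers was 689.0 to 913.0 in primordial, 11246 to 17506 in middle and 10110.1 to 13267 in last follicles, most of it in the later stages from the proteoglycan gene DCN (260.0 and 322.1, then 15364 and 9867, then 8430 and 6982). The collagen genes of that list differed from each other. COL3A1 overlapped between stages, at 351.7 and 128.0 in primordial, 149.0 and 83.8 in middle and 101.7 and 550.5 in last follicles. COL1A2 read 223.1 and 174.2 in primordial, 363.4 and 284.2 in middle and 343.1 and 329.1 in last follicles. Its later arrays thus lay above both primordial arrays, the direction of the sum, by a smaller step than DCN.

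Of the 7 mitochondrial chaperones 4 passed a comparison. Called were 42.9% in middle minus primordial, beside 47.4% of all probe sets, and 0% in last minus middle, beside 17.2%. In last minus primordial 28.6% were called, beside 33.2%, so the shares were under those of all probe sets. HSPD1, the HSP60 of the matrix, read 15758 and 11499 in primordial, 9686 and 10161 in middle and 11789 and 12023 in last follicles. It fell to the middle stage by 0.44 ± 0.16 (adjusted p = 0.0485), in 8 of 16 alternatives, and was lost without primordial replicate 1 or either middle array (−0.21 to −0.47, adjusted p = 0.122 to 0.360). With quantile normalization, HSPD1 was −0.03 in middle minus primordial (adjusted p = 0.903). HSPE1, the HSP10 lid of HSPD1, overlapped in all stages, at 20439 to 24553, and its differences were 0.02 to 0.08. HSPA9, the matrix HSP70, read 8933 and 7348 in primordial, 5435 and 6955 in middle and 6076 and 5184 in last follicles. Last minus primordial was −0.53 ± 0.18 (adjusted p = 0.0479), in 5 of 16 alternatives, and was lost without any single array (−0.39 to −0.67, adjusted p = 0.0524 to 0.260). DNAJC19, a DNAJ of the inner-membrane import motor, read 634.2 and 691.9 in primordial, 984.9 and 1163 in middle and 1236 and 1139 in last follicles. It was above primordial by 0.68 ± 0.20 in middle (adjusted p = 0.0188) and by 0.83 ± 0.20 in last follicles (adjusted p = 0.0118). The first was lost without either primordial array or middle replicate 2 (0.56 to 0.74, adjusted p = 0.0613 to 0.102), and the second without primordial replicate 1 (0.76, adjusted p = 0.0742) or last replicate 1 (0.77, adjusted p = 0.0516). DNAJA3 was higher in middle than in primordial follicles by 0.71 ± 0.25 (adjusted p = 0.0410), which was lost without either primordial array or middle replicate 2 (0.41 to 0.74, adjusted p = 0.112 to 0.244). With each array centred on its median, DNAJA3 and DNAJC19 missed the threshold. DNAJC11 and FKBP8 passed no comparison.

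Regulators and co-factors outside these families were listed from textbook knowledge as 58 genes, of which 36 had a single-symbol probe set and all 36 were tested. Between primordial and middle follicles 18 fell and 3 rose, between middle and last 7 rose and 0 fell, and in last against primordial 7 were lower and 3 higher. Called in either direction were 58.3%, 19.4% and 27.8% of them, beside 47.4%, 17.2% and 33.2% of all probe sets. The pooled share was thus near that of all probe sets after the middle stage and under it between primordial and last. By direction, 50.0% were lower and 8.33% higher in middle minus primordial, beside 17.7% and 29.7%. In last minus middle 19.4% were higher and 0% lower, beside 7.29% and 9.94%. In last minus primordial 19.4% were lower and 8.33% higher, beside 13.4% and 19.8%. The heat shock factors HSF1 and HSF2 were lower in middle than in primordial follicles, at −0.76 ± 0.26 (adjusted p = 0.0397) and −0.50 ± 0.17 (adjusted p = 0.0401). HSF1 read 393.1 and 629.7 in primordial and 264.8 and 312.7 in middle follicles, and the call was lost without primordial replicate 2 or either middle array (−0.43 to −0.87, adjusted p = 0.0811 to 0.287). The HSF2 call was lost without any primordial or middle array (−0.44 to −0.55, adjusted p = 0.0893 to 0.147), and its lower level in last than in primordial follicles, −0.73 ± 0.17 (adjusted p = 0.0119), without either primordial array or last replicate 1 (−0.57 to −0.73, adjusted p = 0.0618 to 0.0683). BAG3, an HSP70 co-chaperone induced by heat shock factor, read 14638 and 5746 in primordial, 554.1 and 648.5 in middle and 4236 and 5923 in last follicles. Like HSPA6 and DNAJB1 it was higher in primordial replicate 1 than in replicate 2 and lowest on both middle arrays. It fell by 3.90 ± 0.37 (adjusted p = 6.12e-05) and rose by 3.03 ± 0.37 (adjusted p = 0.000795), in every alternative.

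Of the 19 cytosolic co-chaperones, 6 fell and 3 rose between primordial and middle follicles, with a median of 0.02. That is 47.4% called, the same share as over all probe sets. By direction, 31.6% were lower and 15.8% higher, beside 17.7% and 29.7% of all probe sets. PTGES3, the p23 co-chaperone of HSP90, fell to the middle stage by 1.59 ± 0.24 (adjusted p = 0.000662) in every alternative, and rose after them by 1.05 ± 0.24 (adjusted p = 0.0156; lost without either middle array or last replicate 1, 0.79 to 1.11, adjusted p = 0.0663 to 0.121). STIP1, which links HSP70 to HSP90, fell by 0.93 ± 0.32 (adjusted p = 0.0368; lost without primordial replicate 1 or middle replicate 1, −0.55 and −0.46, adjusted p = 0.251 and 0.285). The 3 that rose, named after their values were seen, were the HSP90 adaptor SUGT1 (1.09 ± 0.19, adjusted p = 0.00164), the prefoldin subunit PFDN5 (0.78 ± 0.18, adjusted p = 0.00623; 0.68 and 0.0548 without primordial replicate 1) and the cyclophilin PPID (0.61 ± 0.17, adjusted p = 0.0162; lost without any primordial or middle array, 0.56 to 0.66, adjusted p = 0.0582 to 0.0983). CRYAB, a small HSP with a crystallin name, read 375.1 and 149.9 in primordial, 229.9 and 292.7 in middle and 695.3 and 662.3 in last follicles. It was higher in last than in middle follicles by 1.33 ± 0.36 (adjusted p = 0.0349; lost without any middle or last-stage array, 1.17 to 1.5, adjusted p = 0.0813 to 0.229) and than in primordial follicles by 1.45 ± 0.36 (adjusted p = 0.0148; lost without primordial replicate 2, 0.83 and 0.0819, or last replicate 1, 1.41 and 0.0549).

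Of 9 further ER folding factors, 6 fell and 0 rose between primordial and middle follicles, with a median of −1.44 and 66.7% called, beside 47.4% of all probe sets. SDF2L1, a companion of HSPA5, read 1009 and 652.2 in primordial, 92.4 and 101.9 in middle and 279.7 and 282.2 in last follicles. It fell by 2.87 ± 0.26 (adjusted p = 5.19e-05), rose by 1.39 ± 0.26 (adjusted p = 0.00702; 1.33 and 0.0715 without middle replicate 1) and in last minus primordial was −1.48 ± 0.26 (adjusted p = 0.00306). HYOU1, the HSP110 of the ER, read 4469.7 and 4199.7 in primordial, 886.8 and 1588 in middle and 2939.6 and 1851 in last follicles, and fell by 1.85 ± 0.30 (adjusted p = 0.000955). Its lower level in last than in primordial follicles, −0.89 ± 0.30 (adjusted p = 0.0444), was lost without either primordial array or last replicate 2 (−0.56 to −0.93, adjusted p = 0.127 to 0.212). SERPINH1, the collagen chaperone HSP47, passed no comparison. All 3 regulators of the unfolded protein response that were measured fell. ATF4 read 17089 and 15761 in primordial, 3150.4 and 3165 in middle and 6589 and 8929.7 in last follicles, for steps of −2.37 ± 0.17 (adjusted p = 1.6e-05) and 1.28 ± 0.17 (adjusted p = 0.00120), in every alternative. DDIT3, a stress factor downstream of ATF4, fell by 1.21 ± 0.31 (adjusted p = 0.0109) and rose by 1.35 ± 0.31 (adjusted p = 0.0180). The fall was lost without primordial replicate 1 or either middle array (−0.71 to −1.30, adjusted p = 0.0538 to 0.0852), and the rise without either middle array or last replicate 2 (1.15 to 1.44, adjusted p = 0.0751 to 0.108). XBP1, which drives many ER chaperone genes, fell by 0.53 ± 0.18 (adjusted p = 0.0360; lost without any primordial or middle array, −0.43 to −0.63, adjusted p = 0.0718 to 0.193). Of the mitochondrial factors, GRPEL1, the exchange factor of HSPA9, fell by 0.94 ± 0.21 (adjusted p = 0.00543; −0.76 and 0.0566 without primordial replicate 2), and the mitochondrial HSP90 TRAP1 passed no comparison.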

How the data were processed

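RNA from follicles was measured on 6 Affymetrix arrays, 2 per stage. Per the labels' protocols, biotinylated cRNA was made from 6 µg of Trizol-extracted total RNA. Per the submitters' processing notes the values come from GCOS, and its version is not given in the sources used here. As deposited, values are linear intensity per probe set; the authors had scaled them by 1 factor per array, as far as the values show. The table has 24123 probe sets, and 124 controls were left out. Among the 23999 left, 10069 have a single symbol in GEO's platform annotation, 198 have more than 1 and 13732 have none. By gene identifier, 69 of the 70 chaperones have the same symbol in RefSeq's gene table.

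Values were analysed as log2(signal + 16). Fold changes on this scale are understated for dim genes. Probe sets in the lowest 40% of mean signal (under 91.3) were left out. The 6 arrays were fitted together (lmFit, then eBayes with an intensity trend, limma 3.58.1, R 4.3.3), with 3 residual and 6.33 prior degrees of freedom. Two-sided p-values of the 14399 tested probe sets were adjusted together (Benjamini-Hochberg) and called under 0.05. The fit was tested on simulated data. Tables and plots used Python 3.11.15, pandas 2.3.3, numpy 2.4.6 and matplotlib 3.10.9.

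Members, gene lists and compartments were chosen with earlier results of these data known. Full statistics are given for the 6 largest called differences in each direction and comparison and for a fixed list of well-known members and co-factors; DNAJA3, DNAJB4, DNAJB14, DNAJC2, FKBP3, CCT4, HSPA13 and others that passed were added after their values were seen. Cell-type marker counts not given with the results were, between primordial and middle follicles, theca 2 higher and 1 lower of 5, endothelium 0 and 1 of 4, epithelium 3 and 0 of 3, and erythroid 1 and 0 of 2. In last minus middle, erythroid markers gave 0 and 0 of 2 and fibroblast markers 1 and 0 of 5. In middle minus primordial, the fibroblast list gave 3 higher and 0 lower of 5, and the smooth muscle list 3 higher and 1 lower of 5. Replicate numbers did not pair the samples: same-numbered arrays had correlated deviations of −0.05 to 0.06 (r over probe sets). The alternatives were pseudocounts of 1 and 64, no filter or a filter on the lowest 60%, median centring, quantile normalization, a replicate block, no intensity trend, the mean of a gene's probe sets, a fit on the stages compared only, and leaving out each array. Sequence comparisons planned for these genes were not run.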

Additional observations from a re-analysis of the deposited data

How the results depend on the processing

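With 2 arrays per stage, leaving out 1 array leaves that stage with a single array, which is assumed to vary like the others. Over the 70 genes described with full statistics and 3 comparisons, 3342 values under alternatives were compared with the reported ones: 2890 kept direction and side of the threshold, 308 kept direction but were no longer called, 57 became called and 87 changed sign. Of the reported calls, 22 of 54 (middle minus primordial), 8 of 26 (last minus middle) and 10 of 33 (last minus primordial) held in every alternative that kept the gene, with FKBP6 and HSPB8 counted. Among called values, the sign turned for HSPA8 and HSP90AA1 alone, on averaging probe sets; the other reversals were of differences that were not called. Apart from the alternatives named here, the cause of a lost call was not tested.

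With the replicate number as a replicate block, 38, 17 and 23 chaperones were called in middle minus primordial, last minus middle and last minus primordial, beside 40, 20 and 26 without it. Centring each array on its median gave cytosolic medians of −0.83, 0.29 and −0.36 and ER medians of −1.20, 0.71 and −0.45 in the same order. The mean of probe sets per gene gave cytosolic medians of −0.26 (middle minus primordial) and 0.01 (last minus primordial) and an ER median of −0.48 (middle minus primordial). Leaving out 1 array gave 4356 to 7189 probe sets called in middle minus primordial, 727 to 2172 in last minus middle and 2730 to 4297 in last minus primordial. It gave 7 to 18 chaperones called in last minus middle and 11 to 23 in last minus primordial, a cytosolic median of −0.29 to 0.10 in last minus primordial and an ER median of 0.30 to 0.70 in last minus middle.

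With each array centred on its median, in middle minus primordial CALR was −0.31, CRYAB −0.30, FKBP5 −0.38, FKBP9 −0.23, HSPE1 −0.40 and TRAP1 −0.19. With each array centred on its median, in last minus middle CANX was 0.02, DNAJA3 0.05, DNAJC2 0.17, DNAJC24 0.09, FKBP1B 0.14, FKBP3 0.06, HSPA9 0.06 and TCP1 0.15. With each array centred on its median, in last minus primordial DDIT3 was −0.09, DNAJC6 −0.11, FKBP1A −0.16, FKBP5 −0.05, HSP70.2 −0.14, HSPE1 −0.15 and TRAP1 −0.21. With quantile normalization, in middle minus primordial CALR was −0.19, CANX 0.18, CCT8 0.04, CRYAB −0.19 and HSPE1 −0.02. With quantile normalization, in last minus middle DNAJC2 was 0.06, FKBP1B 0.02, HSP90AA1 −0.18, HSPD1 −0.12 and XBP1 −0.09. With quantile normalization, in last minus primordial DNAJC6 was −0.08 and TRAP1 −0.04. With the mean of probe sets per gene, in middle minus primordial CANX was 0.23, FKBP5 −0.19, HSP90AA1 0.17 and HSPA8 1.44. With the mean of probe sets per gene, in last minus middle HSP90AA1 was −0.04 and HSPA8 −0.93. With the mean of probe sets per gene, in last minus primordial CANX was 0.08, HSP90AA1 0.14, HSPA13 0.04 and HSPA8 0.51. With 1 array left out, values that changed sign ranged in middle minus primordial as follows: CALR −0.22 to 0.44, CRYAB −0.51 to 0.73, FKBP4 −0.71 to 0.20, FKBP5 −0.08 to 0.15, HSPE1 −0.12 to 0.15, SERPINH1 −0.79 to 0.03 and TRAP1 −0.01 to 0.46. With 1 array left out, values that changed sign ranged in last minus middle as follows: CANX −0.35 to 0.02, DNAJA3 −0.44 to 0.16, DNAJB6 −0.14 to 0.34, DNAJC2 −0.14 to 0.11, DNAJC24 −0.32 to 0.13, FKBP1B −0.19 to 0.10, FKBP3 −0.35 to 0.10, FKBP4 −0.33 to 0.57, HSP90AA1 −0.03 to 0.06, HSPA9 −0.31 to 0.05, HSPE1 −0.01 to 0.14, TCP1 −0.12 to 0.04, TRAP1 −0.64 to 0.22 and XBP1 −0.14 to 0.26. With 1 array left out, values that changed sign ranged in last minus primordial as follows: DDIT3 −0.36 to 0.64, DNAJA4 −1.72 to 0.25, DNAJB1 −0.68 to 0.10, DNAJB4 −0.07 to 1.02, DNAJC6 −0.24 to 0.48, FKBP1A −0.06 to 0.19, FKBP4 −0.39 to 0.12, HSF1 −0.62 to 0.04, HSP70.2 −0.28 to 0.46, HSPD1 −0.40 to 0.05, HSPE1 −0.05 to 0.21, STIP1 −0.69 to 0.07 and TRAP1 −0.41 to 0.45.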
